A study of Mus musculus with 16 samples.

Results

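The core circadian clock was read in BetaTC6 cells through 10 genes, taken by symbol from the 23329 genes of the deposited count table. Of these, 3 form the positive arm (Arntl, Clock and Npas2) and 7 the negative arm (Per1, Per2, Per3, Cry1, Cry2, Nr1d1 and Nr1d2). BetaTC6 is a line of insulin-producing β-cells grown from a mouse insulinoma, labelled with a C57BL/6 background. The 16 libraries of polyadenylated RNA fell into 4 groups of 4, namely wild type with DMSO vehicle (WT-Con), wild type with ivermectin (WT-IVM), the line labelled P2ry1 knockout with DMSO (P2ry1KO-Con) and the same line with ivermectin (P2ry1KO-IVM). All 4 groups were grown for 3 days, kept without glucose, and then given 20 mM glucose for 30 min. The P2ry1 product is a receptor for extracellular nucleotides. Ivermectin, a drug against parasites, acts on ligand-gated ion channels. Neither the kind of edit, the number of clones behind the knockout line nor the dose of ivermectin was found in the labels. The labels also do not say whether the replicates were separate cultures, so p-values measure the spread between these samples only.

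The circadian clock is a feedback loop of transcription that runs in most cells. The proteins of Arntl (also called BMAL1) and Clock, or Npas2 in place of Clock, pair and bind E-box sequences to activate Per, Cry and Nr1d genes. PER and CRY proteins then return to the nucleus and repress that pair, while the Nr1d proteins (REV-ERBα and REV-ERBβ) compete with ROR proteins to repress Arntl. In β-cells the clock is known for shaping daily insulin secretion, and Per1 and Per2 are also known to respond quickly to stimuli that reach CREB. All cells here were collected after 1 fixed treatment time, so the libraries give levels and not rhythms.

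Depth per library lay between 893088 and 2013242 counts and was lowest in WT-Con. With 3 counts as the limit, a gene at 0 could have reached 1.49 to 3.36 CPM (counts per library of equal size). Such limits cover counting error only, since the reads carry no molecular identifiers. All 12 β-cell markers were detected, summing to 31325 to 40774 CPM per library. P2ry1 ranged from 85.5 to 106 CPM in wild-type libraries and from 72.8 to 94.8 CPM in libraries labelled knockout, so its level did not separate the labels, and "labelled knockout" is used throughout. Several marker lists of other cell types moved with the line, with ivermectin in wild type, or with both. All 15 hepatocyte markers were detected, and their sum was 773 to 1961 CPM in WT-Con, 250 to 457 in WT-IVM, 106 to 175 in P2ry1KO-Con and 122 to 354 in P2ry1KO-IVM. It thus separated the lines in vehicle, and the treatments in wild type, while the lines overlapped in ivermectin and the treatments in the line labelled knockout. All 7 markers of other islet endocrine cells were detected, with sums of 487 to 571 CPM in wild type and 229 to 279 CPM in libraries labelled knockout. Sst, the somatostatin gene of δ-cells, made up most of that gap at 202 to 248 against 12.6 to 25.9 CPM. The duct marker list moved with the line too, at sums of 8.87 to 17.1 CPM in wild type and 0.567 to 8.85 CPM in libraries labelled knockout. Most of that was Spp1, at 7.88 to 16.5 against 0.567 to 6.32 CPM, while the defining duct marker Krt19 was at 0 in every library. Of the acinar markers Prss2, Cpa1 and Amy2a5 were at 0 in every library, and Cela1 and Ctrb1 had at most 3 and 1 counts in any library. Fibroblast markers summed to 8.60 to 11.2 CPM in WT-Con against 2.02 to 5.74 in P2ry1KO-Con, without overlap, and to 2.20 to 6.09 in WT-IVM, which did not overlap WT-Con, against 2.54 to 5.69 in P2ry1KO-IVM. Endothelial markers summed to 1.88 to 2.96 CPM in WT-Con against 0.497 to 0.573 in P2ry1KO-Con, and overlapped in ivermectin. No fibroblast or endothelial marker had more than 8 counts in any library. Leukocyte marker sums (0 to 5.96 CPM) overlapped between the lines in both treatments.

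Stretches of 250 bases before the start of 4 members are shown because these genes stand for the loop's different inputs and differ in the results, Arntl as the positive-arm gene that fell and Per1, Cry1 and Per3 as negative-arm genes. RefSeq windows of build GRCm38.p6 matched 9 of the 10 members, all but Per2. Capitals mark letters found by a search on both strands for the E-box CACGTG, the variant E-prime box CACGTT, the D-boxes TTATGTAA and TTACGTAA, the cAMP response element TGACGTCA and AGGTCA, the core that REV-ERB and ROR proteins bind. Each is written 5′ to 3′ on the gene's strand.
Arntl, chr7:113207215-113207464, plus strand: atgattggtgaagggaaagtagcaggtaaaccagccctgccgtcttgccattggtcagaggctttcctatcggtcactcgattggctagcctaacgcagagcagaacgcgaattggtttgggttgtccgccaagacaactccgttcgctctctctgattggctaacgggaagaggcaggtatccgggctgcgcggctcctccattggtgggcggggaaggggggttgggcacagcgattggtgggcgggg
Per1, chr11:69098699-69098948, plus strand: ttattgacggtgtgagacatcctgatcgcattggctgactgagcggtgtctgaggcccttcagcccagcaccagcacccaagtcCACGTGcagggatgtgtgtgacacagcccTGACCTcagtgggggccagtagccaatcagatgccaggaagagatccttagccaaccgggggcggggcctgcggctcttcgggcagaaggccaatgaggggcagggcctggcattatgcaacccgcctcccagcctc
Cry1, chr10:85185055-85185304, minus strand: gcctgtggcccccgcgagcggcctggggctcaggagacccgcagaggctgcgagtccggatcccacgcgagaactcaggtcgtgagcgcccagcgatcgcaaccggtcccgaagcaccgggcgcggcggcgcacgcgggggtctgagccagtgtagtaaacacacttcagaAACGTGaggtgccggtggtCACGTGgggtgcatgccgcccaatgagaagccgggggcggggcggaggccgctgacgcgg
Per3, chr4:151044666-151044915, minus strand: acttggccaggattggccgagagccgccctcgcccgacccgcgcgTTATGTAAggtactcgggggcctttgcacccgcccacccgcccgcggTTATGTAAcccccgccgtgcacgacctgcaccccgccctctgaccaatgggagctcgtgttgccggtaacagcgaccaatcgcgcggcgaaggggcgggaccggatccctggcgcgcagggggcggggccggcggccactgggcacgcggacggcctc
The Cry1 window held CACGTG at -60 to -55 and AACGTG, the reverse complement of the E-prime box, at -79 to -74. Positions are counted back from the transcription start. In Per1 the window before its most upstream start held CACGTG at -166 to -161 and TGACCT, the reverse complement of AGGTCA, at -137 to -132. The Per3 window held TTATGTAA, the element bound by DBP, TEF, HLF and NFIL3, at -205 to -198 and again at -158 to -151. Of the members not shown, Cry2 and Nr1d1 held 1 E-prime box each, Nr1d2 held AGGTCA, and Clock held TGACCT before 1 of its 3 starts. No match was found in the windows of Arntl or Npas2, which says only that these letters are not in those bases. Among 32851 windows of the same table, 6.02% held the E-box, 3.85% the E-prime box, 0.819% TTATGTAA, 0.113% TTACGTAA, 14% AGGTCA and 1.55% the cAMP response element. A match is a description of letters and was not tested as a binding site.

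Between genes, levels were compared in TPM, a transcript measure that divides by length. Nr1d2 was the highest of the 10, with a median of 40.9 TPM over the 16 libraries, followed by Clock at 31.2 TPM. Per1 and Cry1 came next at medians of 17.5 TPM each, and then Cry2 at 14.1, Nr1d1 at 9.47, Per2 at 6.66, Arntl at 4.26 and Per3 at 3.97 TPM. Nr1d2 was above Clock, and Clock above Per1, in all 16 libraries. Per1 was above Cry1 in only 8 of 16 libraries, so those neighbours did not differ beyond their spread. Each of the other neighbours down to Per3 kept its order in 13 or 14 of 16 libraries. Against the 13713 genes with a median above 0 TPM, Nr1d2 lay at percentile 74.9 and Per3 at percentile 26.4. Npas2, the partner that can replace Clock, had 5 counts in all, at most 1 in a library and in 5 of 16 libraries, which is below the limit that a count of 0 allows. It did not pass the filter on low counts and is in no test, so 9 of the 10 members were tested.

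**Figure D1:**
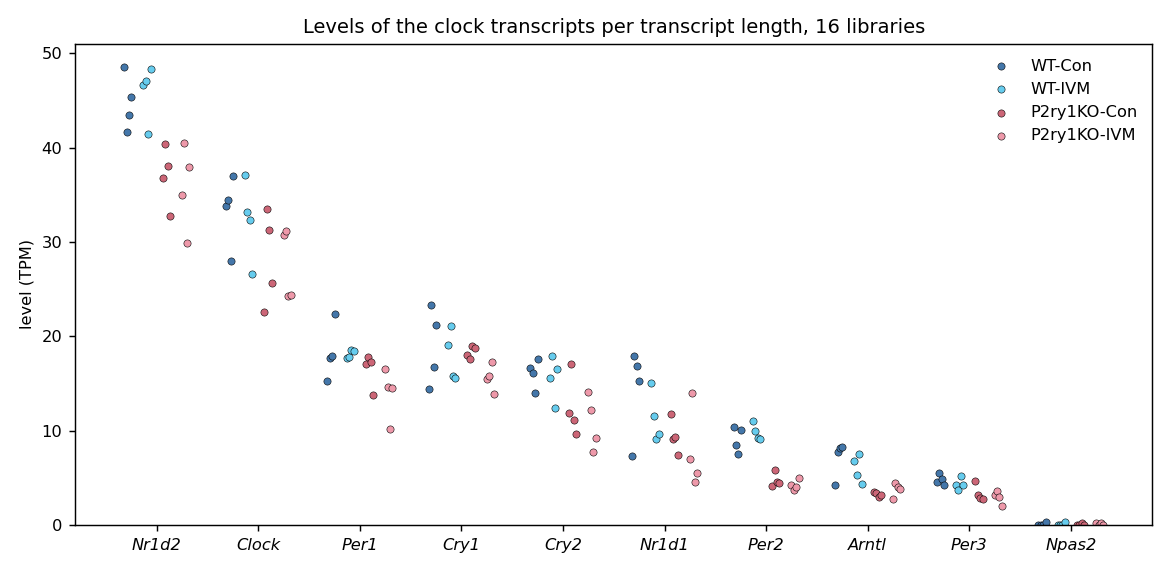
Level in TPM (y axis, linear) of each clock gene (x axis, ordered by median) in each of the 16 libraries; points are single libraries coloured by group. Nr1d2 and Clock sit above the other members, Npas2 sits at or near 0, and the labelled-knockout points of Per2 lie below all wild-type points.

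Clock supplied most of the positive arm. Its share of the summed TPM of Arntl, Clock and Npas2 was 77.5% to 91.3% across libraries. The summed positive arm was 36.1 to 45.6 TPM in WT-Con, 31.2 to 43.8 in WT-IVM, 26.1 to 36.9 in P2ry1KO-Con and 28.1 to 35.7 in P2ry1KO-IVM. Within the negative arm the summed level was 117 to 136 TPM in WT-Con, 112 to 129 in WT-IVM, 89.6 to 111 in P2ry1KO-Con and 76.5 to 104 in P2ry1KO-IVM. Nr1d1 and Nr1d2 together made up 44.0% to 52.1% of it. The negative arm was thus lower in each library labelled knockout than in the wild-type libraries of either treatment, while the positive arm overlapped between the lines. The ratio of negative to positive arm nevertheless overlapped across all 4 groups. Its mean was 3.13 ± 0.164 in WT-Con, 3.25 ± 0.496 in WT-IVM, 3.27 ± 0.489 in P2ry1KO-Con and 2.90 ± 0.185 in P2ry1KO-IVM (SD, n = 4). These sums are descriptions with no test.

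Ivermectin changed none of the 9 tested clock genes past the threshold in either line. The test was edgeR's quasi-likelihood F test on counts, and a gene was called at a Benjamini-Hochberg adjusted p under 0.05 over the 10820 genes tested. In wild type 0 of 9 members were called, where 0.601% of all genes were (65 genes, or 51 by DESeq2). In the line labelled knockout 0 of 9 members were called and 0% of all genes, by both edgeR and DESeq2, although 820 genes had an unadjusted p under 0.05. No member had an unadjusted p under 0.05 in either line. The treatment groups overlapped for all 9 members in both lines, where 3.35% of all genes in wild type and 3.69% in the line labelled knockout did not overlap. The median log2 difference over members was -0.05 in wild type and -0.10 in the line labelled knockout, against 0.00030 and 0.0013 over all genes.

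Per1 is the clock gene that is also an immediate-early gene, one that stimuli induce within minutes. Its wild-type vehicle libraries held 47.2, 51.8, 54.5 and 65.0 CPM and its wild-type ivermectin libraries 51.0, 54.3, 57.0 and 58.9 CPM. The groups overlapped, and the log2 difference was -0.0013 (95% interval -0.27 to 0.26). For comparison, 6 of the 8 other immediate-early genes examined rose in the same libraries, where 0.0555% of all genes were called higher. Those 6 were all the genes called higher there. The list was chosen with earlier results of these data known, so the count of 6 is a description and not a test. Egr1, an early growth response factor, went from 81.2 to 139 CPM in WT-Con to 232 to 393 CPM in WT-IVM, a log2 rise of 1.53 (SE 0.134, adjusted p = 2.10e-09). Fos rose by 1.28, Junb by 0.91, Nr4a1 by 0.88, Ier2 by 0.87 and Btg2 by 0.70 on the log2 scale (largest adjusted p = 0.0108). WT-IVM replicate 1 was the lowest of its group for all 6 genes. It held 47.0 CPM of Fos, where the other 3 libraries held 86.1 to 106, and its 57.5 CPM of Nr4a1 lay within the WT-Con range of 51.3 to 61.8. Dusp1 (0.47) and Sik1 (0.54) did not pass. The hepatocyte and fibroblast marker sums were also lower in WT-IVM than in WT-Con without overlap, and the part of fibroblast markers was not tested. With the log2 level of Alb, the most abundant hepatocyte marker, as a covariate, Egr1 alone of the 6 kept its call, at 1.45 (adjusted p = 0.000143). The other 5 lost theirs (adjusted p = 1 for each) with estimates of 0.77 for Fos, 0.58 for Junb, 0.33 for Nr4a1, 0.65 for Ier2 and 0.55 for Btg2. With a mean of at least 50 counts required, Nr4a1 and Ier2 lost their calls. Nr4a1 also lost its call with DESeq2 and without any of WT-Con replicates 2 and 3 and WT-IVM replicates 2 and 4, and Btg2 without WT-Con replicate 4. In the line labelled knockout the log2 difference of Per1 was -0.15 (interval -0.39 to 0.09). None of the 8 others passed there, in a comparison that called no gene, but 7 of 8 estimates were above 0 with a median of 0.33, and 5 had an unadjusted p under 0.05.

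Per2, the paralog of Per1, had a log2 difference under ivermectin of 0.14 (interval -0.16 to 0.44) in wild type and -0.09 (-0.43 to 0.25) in the line labelled knockout. Arntl had the widest intervals, -0.74 to 0.33 in wild type and -0.27 to 0.88 in the other line. Its mean of 13.6 counts per library gives a counting error of 27.2% on its own. Clock and Nr1d2, the most deeply counted members, had the narrowest intervals, with Nr1d2 between -0.12 and 0.24 in wild type and between -0.14 and 0.20 in the line labelled knockout. The interaction, which asks whether ivermectin's effect differed between the lines, called 0 of 9 members by edgeR and by DESeq2, with 0 at an unadjusted p under 0.05. It called 0.222% of all genes. Its estimates for members ran from -0.23 for Per2 (interval -0.68 to 0.23) to 0.50 for Arntl (-0.28 to 1.29). Over all alternatives Per2 ran from -0.55 to -0.15 and Arntl from 0.41 to 1.04, and neither was called. Egr1 was called in that test at -1.22 (adjusted p = 3.61e-04), with 24 genes in all, and lost that call with Alb as a covariate, where it stood at -1.12 (adjusted p = 1). Over all its alternatives it ran from -1.37 to -1.08.

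**Figure D2:**
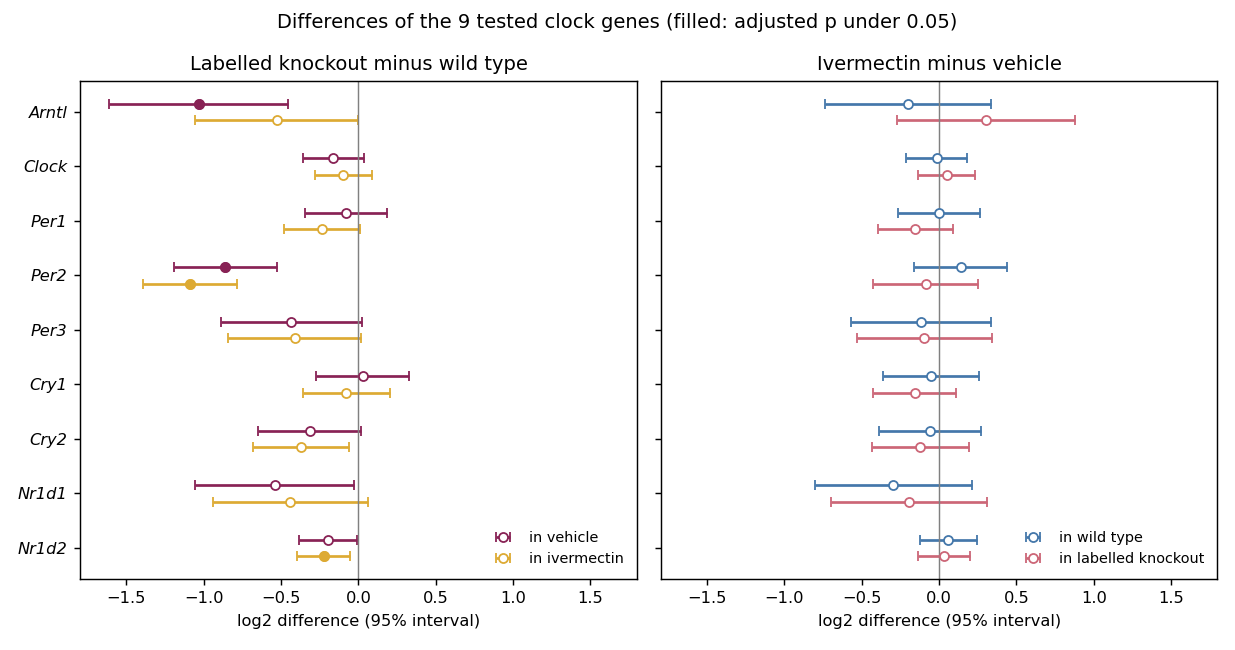
Log2 difference with its 95% interval (x axis) for the 9 tested clock genes (y axis), between the lines on the left and between treatments on the right; filled points have an adjusted p under 0.05. Per2 is filled in both treatments on the left, Arntl in vehicle and Nr1d2 in ivermectin, and no point is filled on the right.

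Between the lines 2 of 9 clock genes were called in each treatment, all lower in libraries labelled knockout, and Per2 was called in both. In vehicle 2 of 9 members were called, Arntl and Per2, both lower, where 20.7% of all genes were called and 10.8% were called lower. In ivermectin 2 of 9 were called, Per2 and Nr1d2, both lower, where 27.8% of all genes were called and 13.9% were called lower. Members called in either direction were therefore near the share of all genes in both treatments. Estimates were below 0 for 8 of 9 members in vehicle and 9 of 9 in ivermectin, against 50.1% of all genes in each. The median log2 difference over members was -0.31 in vehicle and -0.37 in ivermectin, against -0.00066 and -0.00040 over all genes. These comparisons of lines share no library with each other. Bulk RNA cannot tell fewer cells of a type from less RNA per cell. The other islet and duct marker sums given above separated the lines in both treatments, those of hepatocyte, fibroblast and endothelial markers in vehicle, and their part in these differences was not tested except through Alb below.

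Per2 encodes a repressor of the Arntl and Clock proteins. Its level was 40.5, 31.3, 28.9 and 37.2 CPM in WT-Con and 16.8, 21.6, 18.5 and 18.5 CPM in P2ry1KO-Con. With ivermectin they were 40.0, 38.4, 35.8 and 36.7 in wild type and 17.2, 14.9, 17.6 and 22.0 in the line labelled knockout. Every library labelled knockout was below every wild-type library, over both treatments, as for 10.2% of all genes (5.53% in the lower direction). Per2 fell by 0.86 on the log2 scale in vehicle, to 0.551 of the wild-type level (SE 0.164, adjusted p = 0.000151). In ivermectin it fell by 1.09, to 0.471 of the wild-type level (SE 0.149, adjusted p = 7.73e-07). With Alb as a covariate the ivermectin value was -1.07 (adjusted p = 4.86e-06). The vehicle value was then -0.78 with an SE of 0.348 (adjusted p = 0.236), in groups where Alb did not overlap (330 to 919 against 17.2 to 51.6 CPM).

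Arntl encodes the partner without which the positive arm has no DNA-binding pair. Its counts were low: 7, 14, 14 and 14 in WT-Con, 22, 18, 21 and 11 in WT-IVM, 12, 12, 10 and 12 in P2ry1KO-Con, and 10, 15, 13 and 12 in P2ry1KO-IVM. Scaled for library size these were 7.87, 13.7, 15.0 and 13.0 CPM in WT-Con against 6.97, 6.02, 4.99 and 6.36 in P2ry1KO-Con, which did not overlap. In ivermectin they were 11.0, 9.87, 13.9 and 8.42 CPM against 5.36, 8.57, 8.49 and 7.76, which overlapped by a narrow margin. The log2 difference in vehicle was -1.03 (SE 0.286, adjusted p = 0.00798). In ivermectin it was -0.53 (interval -1.06 to -0.0039, adjusted p = 0.128), and the interaction above did not separate the pair of values. With Alb as a covariate the vehicle value moved to -1.71 (SE 0.577, adjusted p = 0.0897). Arntl passed the low-count filter through 8 wild-type and 6 labelled-knockout libraries, where 4 were needed.

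Clock, the histone acetyltransferase partner of Arntl, did not pass in either treatment. Its libraries lay between 139 and 177 CPM in wild type and between 120 and 163 CPM in the line labelled knockout, overlapping throughout. The log2 difference was -0.16 (interval -0.36 to 0.03) in vehicle and -0.10 (-0.28 to 0.09) in ivermectin. The ratio of Clock to Arntl in TPM was 3.44 to 8.08 in wild type and 6.01 to 11.2 in the line labelled knockout. Those ranges overlapped.

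**Figure D3:**
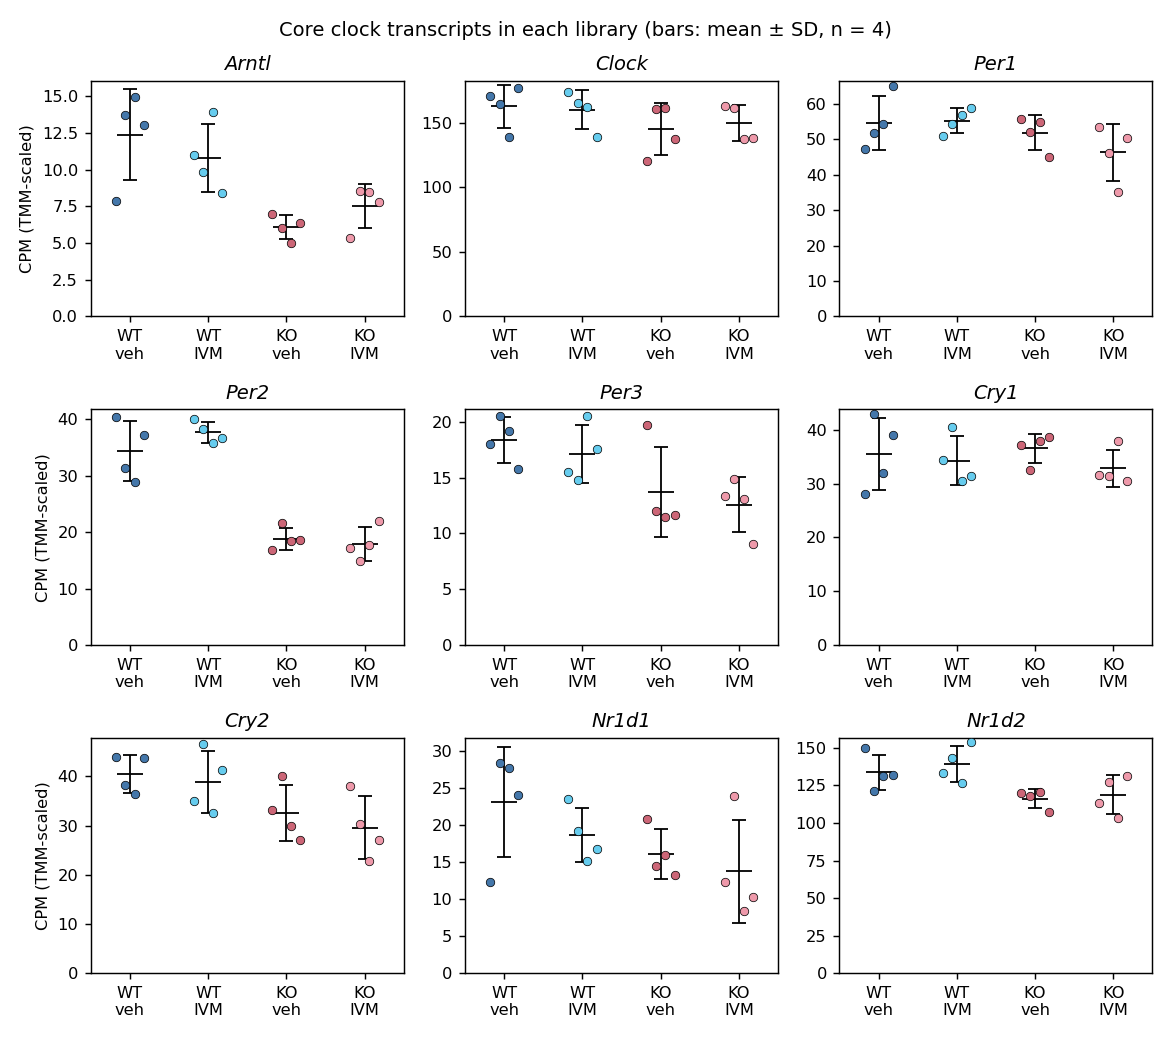
CPM scaled with TMM factors (y axes, linear, from 0) of the 9 tested clock genes in the 4 groups (x axes; veh is vehicle, IVM ivermectin, KO labelled knockout); points are libraries in replicate order and bars are mean ± SD, n = 4. Per2 separates the lines in both treatments, while Clock, Per1 and Cry1 overlap.

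The other Period genes did not follow Per2 past the threshold in a single treatment. Per1 held 55.8, 52.2, 54.9 and 45.0 CPM in P2ry1KO-Con and 53.6, 46.3, 35.3 and 50.5 CPM in P2ry1KO-IVM, overlapping the wild-type values in vehicle and in ivermectin. Its log2 difference between the lines was -0.08 (interval -0.35 to 0.18) in vehicle and -0.23 (-0.48 to 0.01) in ivermectin. The TPM ratio of Per1 to Per2 was 1.47 to 2.39 in the 8 wild-type libraries and 2.53 to 4.19 in the 8 labelled knockout, with no overlap. This ratio was singled out after its values were seen and has no test. Per3, a less well understood Period paralog, held 17.99, 20.5, 19.2 and 15.8 CPM in WT-Con and 19.7, 12.04, 11.5 and 11.7 CPM in P2ry1KO-Con. Replicate 1 of P2ry1KO-Con thus sat with the wild-type libraries, and the vehicle difference was -0.43 (interval -0.89 to 0.02, adjusted p = 0.179). Without that library it was -0.64 (adjusted p = 0.048). In ivermectin Per3 differed by -0.41 (interval -0.84 to 0.02, adjusted p = 0.147).

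**Figure D4:**
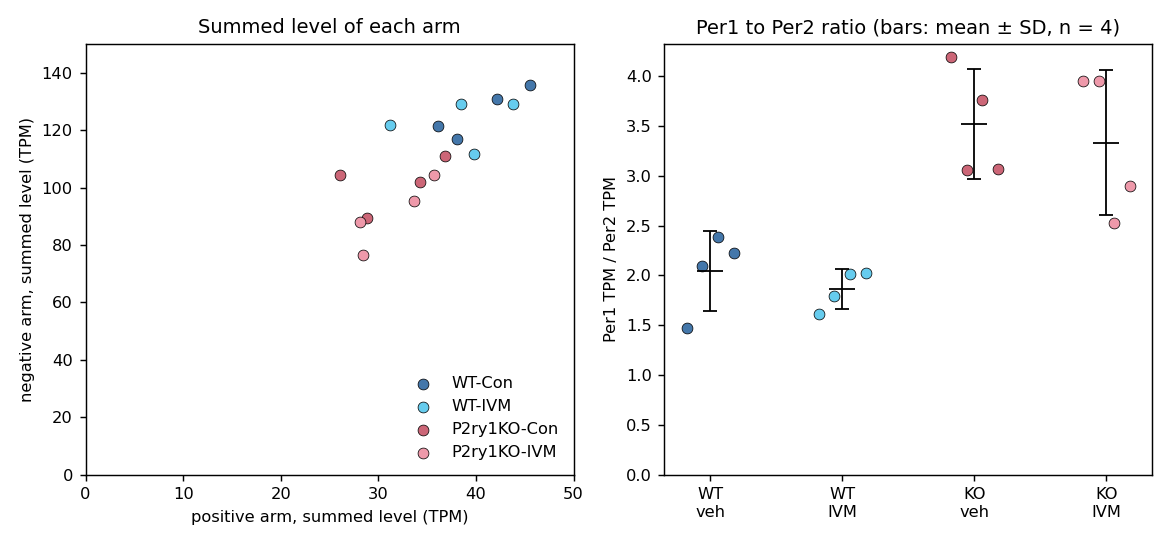
Left, summed TPM of the negative arm (y axis) against the positive arm (x axis), 1 point per library. Right, TPM ratio of Per1 to Per2 (y axis, linear, from 0) by group (x axis) with mean ± SD, n = 4: wild-type libraries lie at 1.47 to 2.39 and libraries labelled knockout at 2.53 to 4.19.

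Cry1 and Cry2 encode the cryptochromes, the strongest repressors of the loop. Cry1 lay between 28.1 and 43.0 CPM in wild type and between 30.4 and 38.7 CPM in the line labelled knockout. Its log2 difference was 0.03 (interval -0.27 to 0.33) in vehicle, the single estimate above 0, and -0.08 (-0.36 to 0.20) in ivermectin. Cry2 held 43.8, 38.1, 36.3 and 43.7 CPM in WT-Con and 33.1, 40.1, 29.9 and 27.0 CPM in P2ry1KO-Con, which overlapped. The Cry2 difference was -0.31 (interval -0.65 to 0.02, adjusted p = 0.182) in vehicle and -0.37 (-0.68 to -0.06, adjusted p = 0.065) in ivermectin. Leaving out WT-IVM replicate 3 or P2ry1KO-IVM replicate 1 took Cry2 past the threshold in ivermectin (lowest adjusted p = 0.016). Over all alternatives that value ran from -0.53 to -0.24, with adjusted p up to 0.392.

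Nr1d2, which encodes REV-ERBβ, was the most abundant member and had small differences. Vehicle libraries held 150, 121, 131 and 132 CPM in wild type and 120, 118, 120 and 107 CPM in the line labelled knockout, with no overlap. Together with Arntl and Per2, that made 3 of 9 members without overlap in vehicle, where 22.1% of all genes did not overlap; in ivermectin it was 1 of 9, Per2, against 25.3%. Nr1d2 fell by 0.22 in ivermectin (SE 0.0839, adjusted p = 0.0423). That call was lost under 8 of 17 alternatives, among them DESeq2 (adjusted p = 0.0899) and the omission of any of WT-IVM replicates 1, 2 and 4 and P2ry1KO-IVM replicates 1 and 3 (adjusted p up to 0.181). In vehicle the value was -0.20 (interval -0.38 to -0.01, adjusted p = 0.125). Nr1d1, which encodes REV-ERBα, held 12.4, 28.4, 27.8 and 24.2 CPM in WT-Con and 20.9, 14.5, 15.97 and 13.2 CPM in P2ry1KO-Con. WT-Con replicate 1 lay below all 4 of those libraries, so the groups overlapped. The Nr1d1 difference was -0.54 (interval -1.05 to -0.03, adjusted p = 0.127) in vehicle and -0.44 (-0.94 to 0.06, adjusted p = 0.187) in ivermectin. Without WT-Con replicate 1 the vehicle value was -0.73 (adjusted p = 0.0383), and without P2ry1KO-IVM replicate 2 the ivermectin value was -0.85 (adjusted p = 0.00991). With thinning the vehicle value of Nr1d1 shrank to -0.23 (adjusted p = 0.648). With Alb as a covariate it was -0.97 (adjusted p = 0.354). Over all alternatives the ivermectin value ran from -0.85 to -0.28. Nr1d1 overlaps the 3′ end of Thra on the opposite strand, and whether counting used strand is not given in the sources used here.

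Averaging the difference between the lines over both treatments compares 8 libraries with 8, and was added after the single-treatment values were seen. There 6 of 9 members were called, all lower, where 39.9% of all genes were called and 20.1% were called lower. DESeq2 called 5 of 9. Per2 fell by 0.97 (SE 0.111, adjusted p = 8.18e-09) and Arntl by 0.78 (SE 0.193, adjusted p = 0.0014). Nr1d1 fell by 0.49 (adjusted p = 0.0252), Per3 by 0.42 (0.0279), Cry2 by 0.34 (0.014) and Nr1d2 by 0.21 (0.00656). Clock at -0.13 (interval -0.27 to 0.0036), Per1 at -0.16 (-0.34 to 0.02) and Cry1 at -0.03 (-0.23 to 0.18) did not pass. By arm, 1 of 2 tested positive-arm genes and 5 of 7 negative-arm genes were called lower, with median log2 differences of -0.46 and -0.34. With Alb as a covariate 2 of 9 members were called, Per2 at -0.93 (adjusted p = 0.00203) and Arntl at -1.19 (adjusted p = 0.0179), and 1757 genes in place of 4316. With every library thinned to the smallest total Arntl was not tested and 3 of the other 8 members were called, namely Per2, Nr1d2 and Clock (-0.19, adjusted p = 0.0438), while Per3, Cry2 and Nr1d1 lost their calls. The calls of Per3 and Nr1d1 were lost under 9 and 8 of 23 alternatives each. Per3 ran from -0.53 to -0.36 and Nr1d1 from -0.75 to -0.30 over those 23.

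Genes that act around the loop showed falls and rises. Clock outputs and related repressors were tested for 6 of 7 symbols. One PAR-domain activator, Hlf, had estimates further below 0 than any core clock gene in both treatments, a gap that was not tested. It held 13.5, 9.78, 15.0 and 17.7 CPM in WT-Con and 5.81, 7.52, 5.99 and 4.77 CPM in P2ry1KO-Con, which did not overlap. Hlf fell by 1.20 in vehicle (SE 0.276, adjusted p = 0.00141) and by 1.12 in ivermectin (SE 0.261, adjusted p = 0.00131). Its counts were low, at 10 to 25 in wild-type libraries and 8 to 15 in libraries labelled knockout. Hlf passed the low-count filter only through wild-type libraries, where it was high. Too few libraries labelled knockout reached the filter's minimum of 6.01 CPM, so the test favoured a fall. Tef, a second activator of that family, fell by 0.40 in ivermectin (adjusted p = 0.0146), a call lost with thinning and without WT-IVM replicate 1 (adjusted p up to 0.156). Dbp, the remaining activator and a direct E-box target, had values of -0.14 in vehicle and -0.29 in ivermectin (adjusted p = 0.754 and 0.272). The repressors Nfil3, Bhlhe40 and Bhlhe41 did not pass in either treatment.

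Kinases and ubiquitin enzymes that set the stability of PER and CRY proteins were tested for 14 of 16 symbols. In vehicle 3 of 14 fell and 0 rose, where 20.7% of all genes were called, and in ivermectin 4 fell and 1 rose, where 27.8% were called, so both counts were near the share of all genes. Csnk1a1, casein kinase 1α, fell by 0.45 in vehicle and 0.35 in ivermectin (adjusted p = 9.22e-05 and 0.000925). Gsk3b, glycogen synthase kinase 3β, fell by 0.38 and 0.63 (adjusted p = 0.00203 and 7.92e-07). Usp7, a deubiquitinase known to act on cryptochromes, fell by 0.39 in each (adjusted p = 0.000472 and 0.00016). In ivermectin Csnk2a1, the catalytic α subunit of casein kinase 2, fell by 0.24 (adjusted p = 0.0226), and Fbxw11, a β-TrCP ubiquitin ligase subunit, rose by 0.27 (adjusted p = 0.0145). Both of those calls were lost without WT-IVM replicate 2, among others (adjusted p up to 0.198 and 0.458). Over all alternatives Csnk2a1 ran from -0.30 to -0.18 and Fbxw11 from 0.12 to 0.34. With Alb as a covariate the vehicle calls of Hlf at -1.44, Gsk3b at -0.31 and Usp7 at -0.47 were lost (adjusted p = 0.19, 0.438 and 0.118), and that of Csnk1a1 was kept. The average over treatments added Csnk2a2 at -0.26 (adjusted p = 0.0198) and Gsk3a at 0.18 (adjusted p = 0.0203), and both calls were lost with Alb as a covariate and with thinning (adjusted p up to 0.483 and 0.278). Csnk2a2 also lost its call with DESeq2, with no filter and without WT-Con replicate 3, and Gsk3a without P2ry1KO-IVM replicate 1 or 2.

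Cofactors of the clock were tested for all 13 symbols, and 0 passed in vehicle by edgeR, where 20.7% of all genes were called. An unadjusted p under 0.05 was reached there by 5 of the 13 and by 3562 of all 10820 genes tested. In ivermectin only Crebbp, an acetyltransferase that coactivates CREB and the Arntl and Clock pair, passed, where 27.8% of all genes were called. It fell by 0.59 (SE 0.146, adjusted p = 0.00221), from 31.4 to 40.4 CPM in WT-IVM to 16.3 to 27.8 CPM in P2ry1KO-IVM, a call lost with thinning (adjusted p = 0.114). In the average, Crebbp (-0.45), the acetyltransferase gene Kat2b (0.29) and Timeless (-0.20) passed (largest adjusted p = 0.0188). Timeless lost its call without WT-Con replicate 4 and with Alb as a covariate (adjusted p up to 0.652), Kat2b with Alb as a covariate and with thinning (up to 0.107), and Crebbp with thinning (0.0658). Immediate-early genes between the lines went in both directions in vehicle, with Egr1 higher by 0.67, a call lost with Alb as a covariate (0.55, adjusted p = 0.274), and Sik1 lower (-0.87). In ivermectin 5 of 8 fell, where 13.9% of all genes were called lower, namely Egr1, Fos, Nr4a1, Dusp1 and Sik1 (-0.48 to -1.95). The list was chosen with earlier results of these data known. This comparison also reuses the WT-IVM libraries in which 6 of the 8 had risen. The count of 5 is thus a description and not a test of the list. Sik1 encodes a kinase that restrains CREB coactivators and had the estimate furthest below 0 of those 5 genes. Its counts were 8 to 26 in wild-type libraries and only 5 to 13 in libraries labelled knockout. Sik1 passed the low-count filter only through wild-type libraries, where it was high. Too few libraries labelled knockout reached the filter's minimum of 6.01 CPM, so its test favoured a fall. The Sik1 call in vehicle (adjusted p = 0.0475) was lost under 11 of 15 alternatives, including the omission of any 1 of the WT-Con replicates or of P2ry1KO-Con replicates 1, 3 and 4. Fos in ivermectin lost its call with DESeq2, with thinning, and without WT-IVM replicate 4 or P2ry1KO-IVM replicate 1 (adjusted p up to 0.113).

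**Figure D5:**
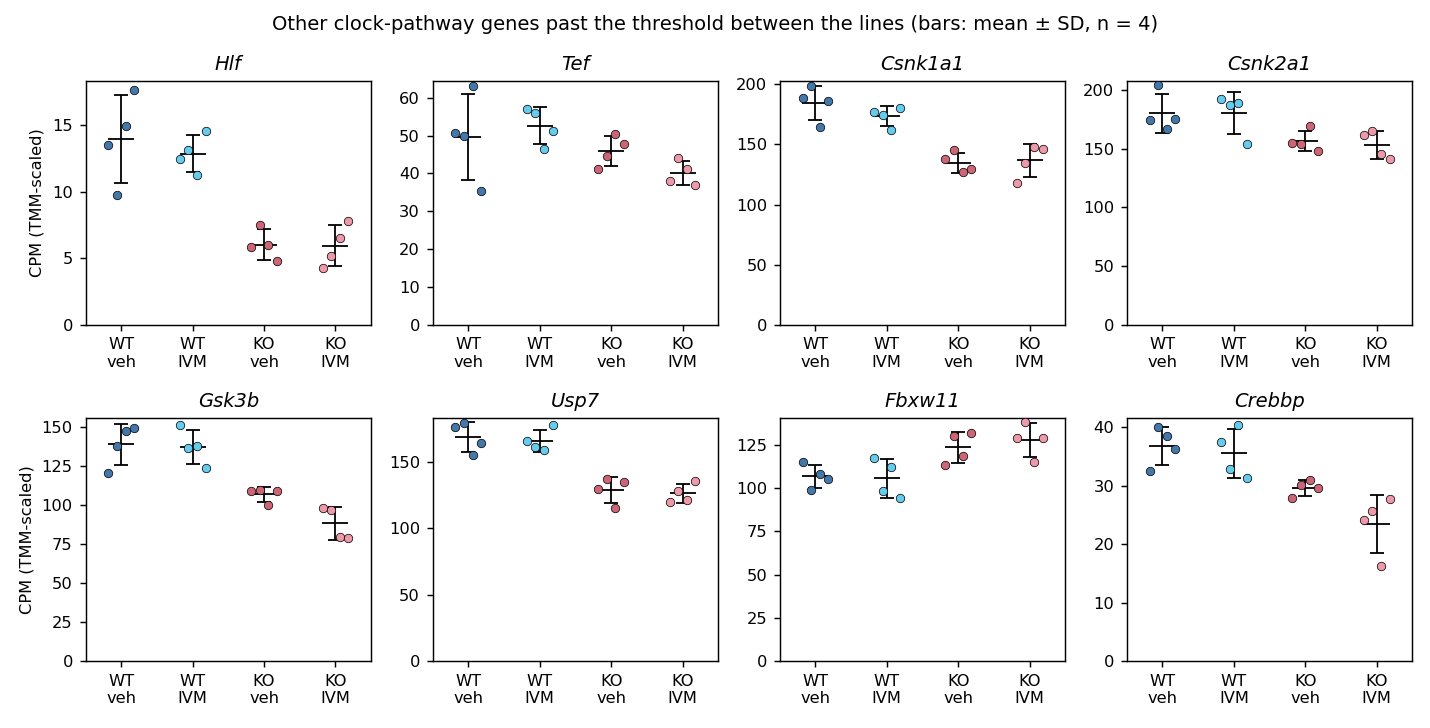
CPM scaled with TMM factors (y axes, linear, from 0) in the 4 groups (x axes; veh is vehicle, IVM ivermectin, KO labelled knockout) for 8 clock-related genes outside the core loop that passed the threshold between the lines in a single treatment, immediate-early genes left out; points are libraries and bars are mean ± SD, n = 4. Hlf, Csnk1a1, Gsk3b and Usp7 lie lower in the libraries labelled knockout, and Fbxw11 lies higher.

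The genes whose log2 CPM tracked Arntl most closely over the 16 libraries were Fbxo48 (Pearson r = 0.895), Phtf1 (0.886), Cnih2 (0.879), Ccdc21 (0.861) and Csf1 (0.858), out of 10231 genes. The libraries share their lines and treatments, so these values hold the difference between the lines. Csf1 lay at 29.2 to 48.3 CPM in WT-Con and 12.7 to 21.1 CPM in P2ry1KO-Con. Cnih2 lay at 27.0 to 36.3 and 17.96 to 26.7 CPM in the same groups.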

How the data were processed

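RNA was measured in 16 libraries of BetaTC6 cells, 4 per group, grouped by the genotype and treatment labels. Libraries were made from 125 ng of RNA with a strand-keeping kit and read as pairs of 42 nucleotides, per the labels' protocols. STAR 2.7.2b, RSEM 1.3.3, DESeq2 1.32.0, bcl2fastq and build mm10 are named in the submitters' processing notes, with no role or order. The authors deposited a table of raw counts per gene, which equals RSEM's expected counts rounded down for 100% of values. They also deposited expected counts, TPM and effective lengths per library, per the file headers. Human single-cell files of another study were not used here, and 1 gene that the naming rule gives is not reported here.

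The 10 members, the lists and the tests were chosen with earlier results of these data known. Counts were fitted with edgeR 4.0.16 in R 4.3.3 (TMM, filterByExpr at its minimum count of 10 and total of 15, glmQLFit and glmQLFTest), with 1 mean per group over all 16 libraries, after a test on simulated data. Benjamini-Hochberg adjustment ran over 10820 genes with a threshold of 0.05, standard errors came from the log2 difference and its F statistic, and intervals are 95%. CPM of members use TMM factors, while sums of marker lists and their genes are scaled by totals alone. Named genes were all members, any gene of the clock lists past the threshold, and the 5 genes with the highest correlation of log2 CPM (prior count 2) with Arntl among genes averaging at least 3 on that scale. Replicates of a group differed by a chi-square per degree of freedom of 1.16 to 6.81 over 24 pairs, so none was counted as a duplicate. Alternatives were expected counts (rounded), DESeq2 1.42.0, RLE factors, no filter, a mean of at least 50 counts, a replicate block, only the libraries compared, Alb as a covariate, thinning to the smallest total, and leaving out each library. Thinning was redrawn with binomial sampling after its values were seen, because the first routine drew with more than sampling noise.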

Additional observations from a re-analysis of the deposited data

Results flagged for a closer look

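Of 36 sets of 4 libraries (9 clock genes in 4 groups), 2 had a library far from the others, where chance gives about 1 in 20. Cry1 in P2ry1KO-IVM replicate 3 stood at 37.9 CPM (58 counts), with the other 3 libraries at 30.4 to 31.6 CPM. Per3 in P2ry1KO-Con replicate 1 stood at 19.75 CPM (34 counts), with the others at 11.5 to 12.04 CPM.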

How the results depend on the processing

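Counts of members called were 0 in both ivermectin comparisons and in the interaction under every alternative run. For the line difference in vehicle, 0 of the members were called with a mean of at least 50 counts (which leaves out Arntl and Per2) or with Alb as a covariate, and 1 with thinning (which left Arntl untested). In ivermectin it was 1 member with DESeq2, no filter, a mean of at least 50 counts or only the libraries compared, and 1 to 3 when 1 library was left out. For the average over treatments it was 2 with a mean of at least 50 counts, 2 with Alb as a covariate and 3 with thinning, which left Arntl untested, added Clock and lost Per3, Cry2 and Nr1d1. Genes called for ivermectin in wild type numbered 140 with no filter, 7 with a mean of at least 50 counts, 1 with Alb as a covariate and 55 to 100 with 1 library left out; in the line labelled knockout, 23 with no filter. Genes called between the lines numbered 403 in vehicle with Alb as a covariate, 1911 in ivermectin with thinning and 1757 on average with Alb as a covariate. Interaction genes numbered 15 with DESeq2, 82 with no filter, 4 with a mean of at least 50 counts, 47 with the replicate block, 0 with Alb as a covariate and 8 to 48 with 1 library left out (48 without WT-IVM replicate 1, 8 without P2ry1KO-IVM replicate 1). Levels per effective length from CPM gave the same order of members as TPM except for Per1 and Cry1. Where fewer genes or samples did not set the value, the cause was not tested.

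Signs changed only for member values that did not pass the threshold. For ivermectin in wild type, Clock was 0.033 with thinning and -0.08 to 0.042 with 1 library left out. Per1 was 0.0014 with DESeq2, 0.009 with no filter, 0.0006 with the replicate block, 0.0047 with thinning and -0.06 to 0.10 with 1 library left out. Nr1d2 was -0.011 with Alb as a covariate, Cry1 ran from -0.15 to 0.05 and Cry2 from -0.17 to 0.011 with 1 library left out. In the line labelled knockout, thinning gave Per3 at 0.083 and Nr1d2 at -0.019. Leaving out 1 library there gave Clock -0.028 to 0.11, Per3 -0.19 to 0.11, Cry2 -0.28 to 0.0014 and Nr1d2 -0.017 to 0.089. Between the lines, leaving out 1 library gave Per1 -0.14 to 0.022 and Cry1 -0.058 to 0.13 in vehicle, Cry1 -0.14 to 0.017 in ivermectin and Cry1 -0.067 to 0.029 on average. Cry1 on average was 0.0065 with Alb as a covariate and 0.050 with thinning. For the interaction, Alb as a covariate gave Per3 at -0.051 and Nr1d2 at 0.060, thinning gave Cry2 at 0.051 and Nr1d1 at -0.14, and leaving out 1 library gave Clock -0.012 to 0.13, Per3 -0.068 to 0.23, Cry2 -0.22 to 0.062, Nr1d1 -0.31 to 0.29 and Nr1d2 -0.086 to 0.027.

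Same-numbered libraries deviated together with correlations of -0.05 to 0.14, so the numbers were not taken as pairs. With the replicate block Per2 was -0.86 in vehicle and -1.09 in ivermectin, and the counts of members called did not change. Depth leaves Npas2 untested, and among the 9 tested members it limits Arntl, Per3 and Nr1d1 most, at means of 13.6, 23.3 and 27.2 counts per library.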
